A study of Mus musculus with 30 samples.

Results

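The genes described here make, sense, move, take up and export cholesterol in the mouse liver. They were chosen by name, from a list of 36 genes, and a gene was measured where the array annotation gave a probe set with its symbol alone. That left 30 genes of the 17097 on the array, 16 of them synthesis enzymes, 4 sterol sensors or their partners, 3 intracellular carriers, 1 lipoprotein receptor, 1 esterifying enzyme and 5 genes of the LXR (liver X receptor) and export arm. Acat2, Pmvk, Soat1, Soat2, Nr1h2 and Abca1 had no such probe set and were not analysed here. RNA was measured on 1 one-colour Affymetrix array per mouse in non-tumour liver of 30 mice. Healthy livers came from 5 mice on chow, whose labels also give vehicle as the treatment. The other mice ate a high-fat diet that lacks choline (CD-HFD), used to model steatohepatitis (NASH) and hepatocellular carcinoma (HCC). Of these, 5 received vehicle and developed neither HCC nor fibrosis, 4 received vehicle and developed both, 10 received sulindac prophylactically and 6 received aspirin and clopidogrel prophylactically. Sulindac is a cyclooxygenase inhibitor, aspirin inhibits cyclooxygenases irreversibly, and clopidogrel blocks a platelet receptor for ADP. The label groups by outcome exist for vehicle mice, and the labels used here give no tumour outcome for the drug-treated mice, no strain, age or sex, and no dose or time of collection. Mice are named by their titles (Hlth, Veh_low without HCC, Veh_high with HCC, Sulin, AspClo, with the animal number).

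Hepatocytes build cholesterol from acetyl-CoA through mevalonate, isoprenoid units, squalene and lanosterol. When sterol in the endoplasmic reticulum is low, SCAP escorts SREBP-2, the product of Srebf2, to the Golgi, where it is cut into a transcription factor that turns on the synthesis genes. INSIG proteins hold the complex back when sterol is high. Oxysterols activate LXR, which turns on sterol exporters such as the ABCG5 and ABCG8 half-transporters that send sterol into bile, and Mylip, whose ubiquitin ligase lowers lipoprotein receptor protein.

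The promoter stretches of 5 synthesis enzymes and the DNA between Abcg5 and Abcg8 are shown as examples. From mouse to mouse Cyp51, Msmo1 and Idi1 varied closely with Sqle, another synthesis gene (Pearson r = 0.941, 0.918 and 0.906, group means removed). Mvd and Hmgcs1 varied less closely with it (r = 0.71 and 0.531), and Nsdhl, not shown, varied closely (r = 0.92). Abcg5 and Abcg8 varied together (r = 0.81). The sequences are from RefSeq, build GRCm38.p6, where 23 of the 30 genes matched an entry, and each is written 5′ to 3′ on the gene's strand up to the base before its annotated start. Capitals mark CCAAT on either strand, the motif read by the factor NF-Y that works beside SREBP-2, and TCACNCCAC, a form of the sterol regulatory element.
Hmgcs1: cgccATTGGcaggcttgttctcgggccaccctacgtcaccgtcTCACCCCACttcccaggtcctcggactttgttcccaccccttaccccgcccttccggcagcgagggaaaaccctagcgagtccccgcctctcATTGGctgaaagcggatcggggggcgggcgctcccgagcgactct
Mvd: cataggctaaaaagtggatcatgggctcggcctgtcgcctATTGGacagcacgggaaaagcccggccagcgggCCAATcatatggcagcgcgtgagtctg
Msmo1: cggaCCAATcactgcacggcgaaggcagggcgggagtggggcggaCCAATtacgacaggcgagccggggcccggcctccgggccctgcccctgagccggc
Idi1: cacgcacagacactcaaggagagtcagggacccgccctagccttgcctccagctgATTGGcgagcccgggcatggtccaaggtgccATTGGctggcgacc
Cyp51: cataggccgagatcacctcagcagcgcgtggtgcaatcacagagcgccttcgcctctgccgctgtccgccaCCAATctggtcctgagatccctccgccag
These stretches lie at chr13:119690171-119690350 (plus strand), chr8:122443423-122443522 (minus), chr8:64733579-64733678 (minus), chr13:8885506-8885605 (plus) and chr5:4104698-4104797 (minus). Within windows from 250 bases before to 50 after a start, CCAAT on either strand was present for 13 of 13 synthesis genes with an entry, for 8 of 10 other members and for 41.1% of all genes. TCACNCCAC was present in Hmgcs1 and in 1.24% of all windows, where its letters run from base 137 to base 129 before the start. A match describes letters in a window and does not show binding.

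Abcg5 and Abcg8 are read in opposite directions. RefSeq lists 2 starts for Abcg8, one of them upstream within Abcg5, so that the annotated genes overlap. The start nearer to that of Abcg5 was chosen here, and the 109 bases between these starts, at chr17:84683012-84683120, are given on the plus strand, with capitals marking AGATAA on either strand, a form of the site read by GATA factors.
Abcg5-Abcg8: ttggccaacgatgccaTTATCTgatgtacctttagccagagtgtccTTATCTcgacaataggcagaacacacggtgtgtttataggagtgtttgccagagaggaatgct
AGATAA was searched for after this stretch had been read, and 12.7% of all genes hold it in a window. The windows of 5 of 10 members outside synthesis held it (Abcg5, Abcg8, Insig2, Lcat and Npc2, with those of Abcg5 and Abcg8 overlapping) and those of 0 of 13 synthesis genes.

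Every array carried hepatocyte markers, which bears on the label of liver but does not test that of non-tumour tissue. The summed intensity of 8 hepatocyte markers ranged from 40710 to 47450, and that of 2 intestinal genes, a check of carry-over, from 42 to 50. Array medians lay between 24.1 and 24.6. Healthy mice Hlth_1798 and Hlth_1807 stood apart from their own group, with mean correlations of 0.9777 and 0.9783 against 0.9864 to 0.987 for the other 3. Every healthy mouse, however, correlated better on average with the vehicle mice without HCC (0.9833 to 0.9897) than with the other healthy mice. Hlth_1798 had summed macrophage markers of 10298 against 2692 to 3751 in the other healthy mice, and Hlth_1807 had summed cholangiocyte markers of 409 against 91 to 100. The clock output gene Dbp was at 10 and 10.2 log2 in Veh_high_1831 and Veh_high_2088 and at 4.37 to 5.2 in the other 7 vehicle mice. Results were therefore also computed without these arrays and without Veh_low_794 and Veh_low_1819, which an earlier analysis of these data had placed nearer to the healthy mice. By correlation, these last mice did not stand apart from their group. They hold the highest Sqle levels of the 5 vehicle mice without HCC, so leaving them out lowers that group's synthesis genes by its construction.

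The synthesis genes varied as a block from mouse to mouse, and both drug arms held the whole range. The number of the 16 synthesis genes above their own median over all 30 mice was 5, 9, 13, 14 and 4 in the healthy mice, in the order of the heat map. In vehicle mice without HCC the number was 1, 1, 1, 12 and 6, and in vehicle mice with HCC it was 7, 15, 14 and 14. Under sulindac it ran from 0 of 16 in Sulin_16 and Sulin_25 to 16 of 16 in Sulin_17 and Sulin_21, with a median of 6. Under aspirin with clopidogrel it ran from 0 in AspClo_62 to 16 in AspClo_63, with a median of 9. Both drug arms thus held mice with none of the synthesis genes above the median and mice with all of them above it.

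**Figure D1:**
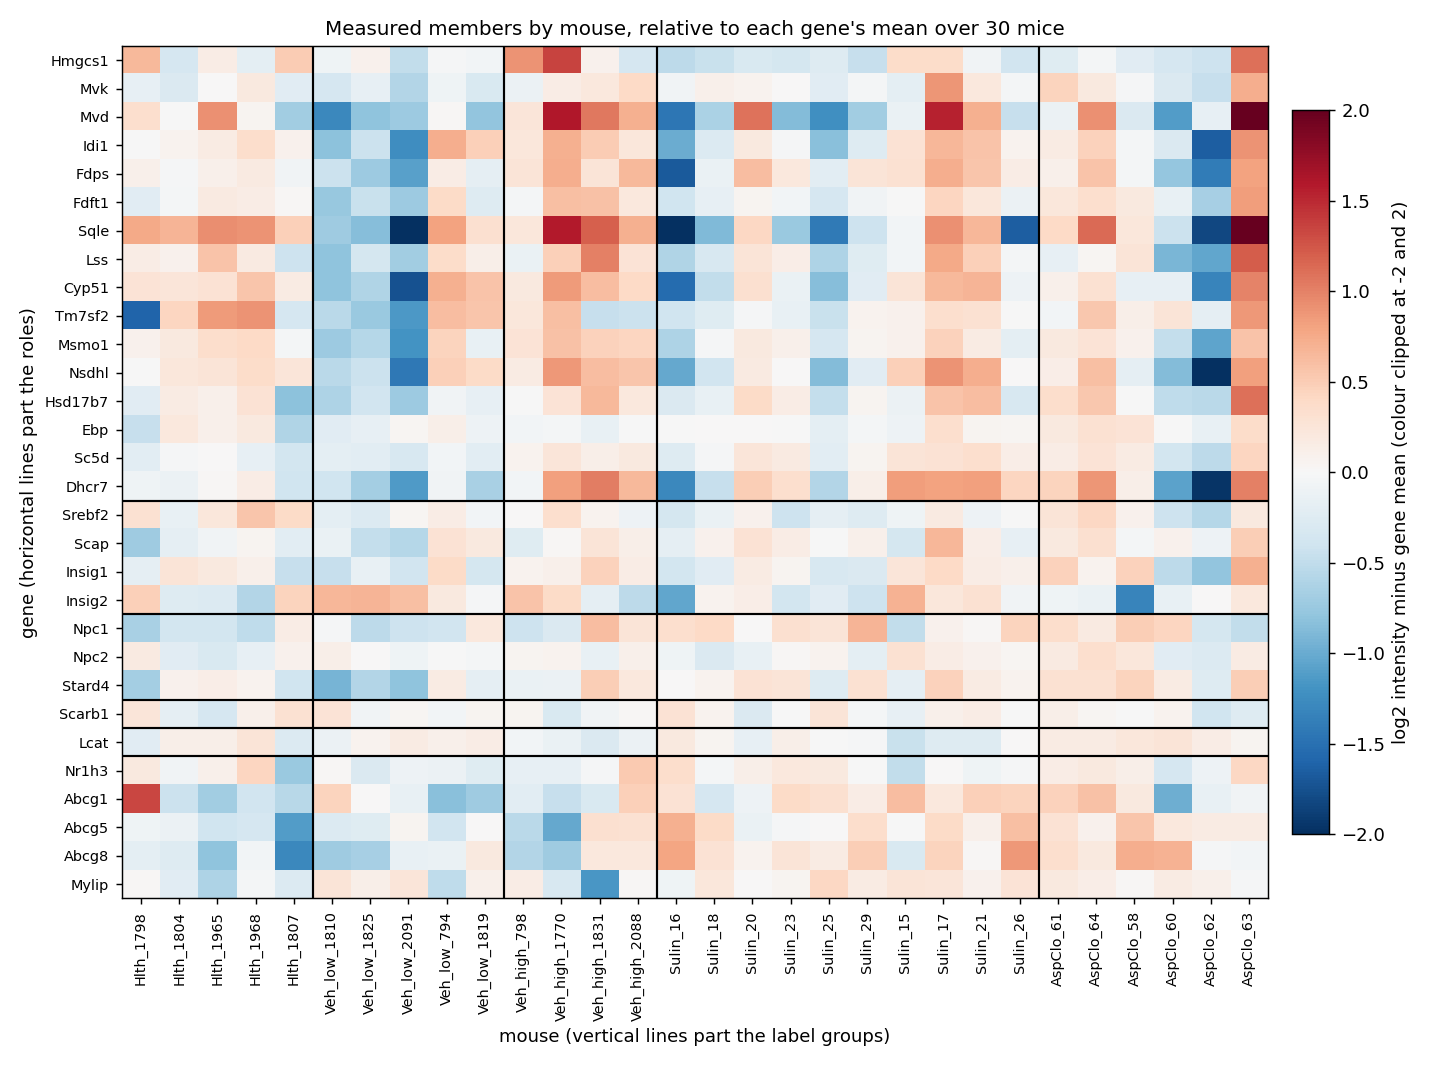
Heat map of log2 intensity minus each gene's mean over 30 mice (colour, clipped at -2 and 2) for the 30 measured genes (rows, by role) in 30 mice (columns, by group). The synthesis block is blue in Veh_low_1810, Veh_low_1825, Veh_low_2091, Sulin_16, Sulin_25 and AspClo_62 and red in Veh_high_1770, Sulin_17 and AspClo_63, while the export genes at the foot do not follow it.

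The median standard deviation of the 16 synthesis genes between mice was 0.19 in healthy livers, 0.473 in vehicle livers without HCC, 0.288 with HCC, 0.413 under sulindac and 0.697 under aspirin with clopidogrel. For genes at or above the median gene of the array it was 0.201, 0.165, 0.181, 0.161 and 0.177. In healthy livers the synthesis genes thus spread much as the genes at or above the median gene did, and in the diet groups they spread more. Those genes were not matched to the synthesis genes in brightness. Sqle, which oxygenates squalene, had the widest range of the synthesis genes in 3 groups. It was 8.96, 8.88, 9.13, 9.11 and 8.69 in the 5 healthy mice (8.95 ± 0.18, SD). In vehicle mice without HCC it was 7.5, 7.36, 4.87, 9.01 and 8.52, a span of 17.6-fold. Under sulindac Sqle ran from 5.89 through a median of 7.63 to 9.12, a 9.4-fold span, and under aspirin with clopidogrel from 6.38 through 8.52 to 10.50, a 17.3-fold span. The highest and the lowest aspirin-clopidogrel mice lay beyond the healthy range on either side. In tissue RNA, fewer cells of a type and less RNA per cell cannot be told apart.

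Vehicle livers with HCC were compared with vehicle livers without it to ask whether the pathway differs with tumour development. The mice with HCC also had fibrosis and the others had neither, so HCC and fibrosis cannot be told apart in this comparison. All 16 synthesis genes had a higher mean with HCC, against 46.6% of all genes, and their median log2 change was 0.695, against -0.008 for all genes. None of the 30 members passed an adjusted p under 0.05 over the 17097 genes in limma, where 0.0877% of genes did. At an unadjusted p under 0.05, 11 of 30 members were higher (background 3.34%), 10 of them synthesis enzymes, and 2 were lower, Lcat and Mylip (background 5.53%). The synthesis genes are correlated with each other, so these counts are not independent observations.

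Mvd, which makes isopentenyl diphosphate from mevalonate diphosphate, was at 4.46, 4.94, 5.02, 5.77 and 4.96 without HCC and at 5.99, 7.34, 6.8 and 6.46 with HCC. The groups did not overlap, and the change was 1.62 (SE 0.561, 3.07-fold), with an adjusted p of 0.336 in limma. Dhcr7, which catalyses the last step to cholesterol, was at 8.35, 8.06, 7.62, 8.67 and 8.09 without HCC and at 8.69, 9.56, 9.77 and 9.4 with it. Its groups did not overlap either, though Veh_low_794 and Veh_high_798 nearly met, and the change was 1.196 (SE 0.462, 2.29-fold, limma adjusted p = 0.419). Fdps, which makes farnesyl diphosphate, Sc5d, a sterol desaturase, and Hsd17b7, a sterol ketoreductase, also did not overlap. Their changes were 0.93 (SE 0.381), 0.36 (SE 0.145) and 0.67 (SE 0.277). Such a lack of overlap upward was seen for 5 of the 30 members and for 1.02% of all genes.

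Msmo1, a methylsterol oxidase, had the smallest p of the members. It was at 10.09, 10.24, 9.62, 11.26 and 10.66 without HCC and at 11.08, 11.4, 11.27 and 11.24 with HCC. Veh_low_794 lay within the HCC range, and the change was 0.87 (SE 0.266, 1.83-fold, limma adjusted p = 0.281). Fdft1, squalene synthase, differed by 0.705 (SE 0.224, limma adjusted p = 0.295). The mean of Sqle was 7.45 ± 1.60 in the 5 vehicle mice free of HCC and 9.13 ± 0.59 in the 4 that had it (SD), a change of 1.68 (SE 0.716) whose 95% interval ran from 0.21 to 3.15 and whose limma adjusted p was 0.465. Its change was 1.04 without Veh_low_2091, the smallest value with 1 mouse left out. Hmgcs1, which makes HMG-CoA, differed by 0.61 (SE 0.295), but its probe set is dim, with a mean of 4.909 against 4.902 for the median gene. Idi1, which isomerises isopentenyl diphosphate, differed by 0.675 (SE 0.397), and Mvk, mevalonate kinase, by 0.46 (SE 0.196). The lanosterol synthase Lss, the demethylase Cyp51 and the dehydrogenase Nsdhl differed by 0.69 (SE 0.35), 0.89 (SE 0.439) and 0.855 (SE 0.445). Without Veh_low_2091 the change of Idi1 was 0.43 and that of Cyp51 0.55. The change of Hmgcs1 was 0.33 without Veh_high_1770. Ebp, a sterol isomerase, was nearly level, at 0.01 (SE 0.135), and Tm7sf2, a sterol reductase, differed by 0.24 (SE 0.387).

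**Figure D2:**
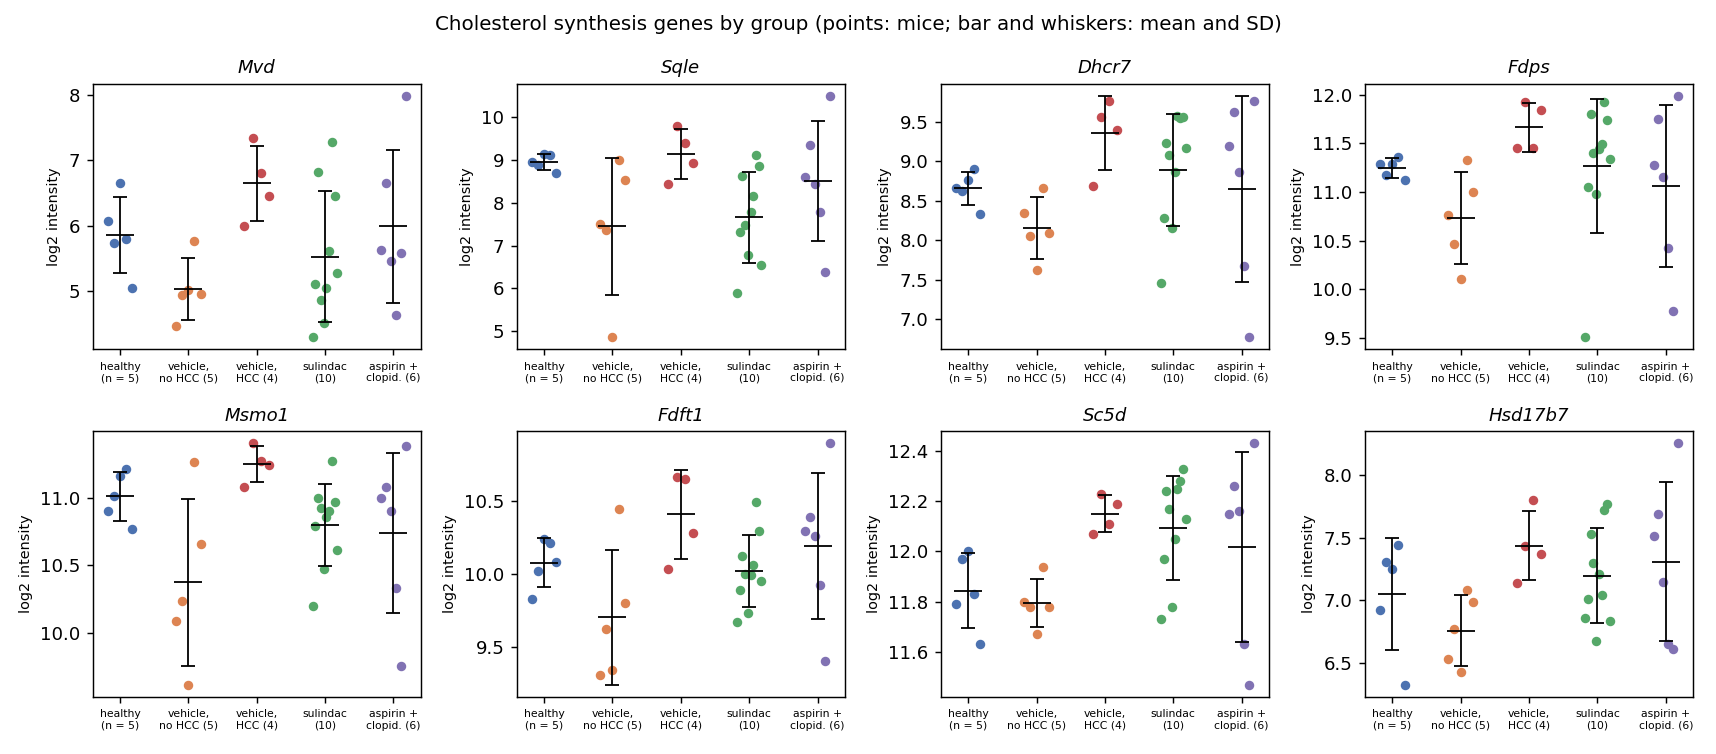
Log2 intensity (vertical axis) of 8 synthesis genes in the 5 label groups (horizontal axis), 1 point per mouse, with the group mean and SD as a bar and whiskers. Mvd, Dhcr7, Fdps, Sc5d and Hsd17b7 do not overlap between vehicle livers without and with HCC, and the drug arms span both.

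Without Hlth_1798, Hlth_1807, Veh_low_794 and Veh_low_1819 the median change of the synthesis genes with HCC was 1.13. Without Veh_high_1831 and Veh_high_2088, the mice with high Dbp, it was 0.772. The clock gene Cry1 differed in the same comparison by -2.18 (SE 0.38, limma adjusted p = 0.019), and no collection time is given. Cry1 was at 6.76 and 6.35 in Veh_high_798 and Veh_high_1770, still below the vehicle mice without HCC, at 7.12 to 8.99. Leaving out the mice with high Dbp thus did not remove the difference in Cry1. In the HCC mice kept, Tef (7.4 and 7.4) and Hlf (6.51 and 6.27) were also below every vehicle mouse without HCC. Nfil3, Nr1d2, Npas2, Per1, Per2, Per3 and Ciart lay within the range of that group. Arntl, Clock and Dbp lay within it or just below it. The part of the clock in the synthesis values was not tested.

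Against healthy livers, the outcome groups on the diet lay on either side. In vehicle livers without HCC, 15 of 16 synthesis genes had a lower mean than in healthy livers, with a median change of -0.392, while 53.7% of all genes had a higher mean. No member passed, and neither did any gene (0%). At an unadjusted p under 0.05, 3 members were lower, against 1.97% of all genes. Those were Msmo1 at -0.64 (SE 0.251), Sqle at -1.50 (SE 0.675) and Srebf2 at -0.33 (SE 0.153), with limma adjusted p of 0.886, 0.923 and 0.923. Without Veh_low_2091 the Sqle change was -0.86. In vehicle livers with HCC, 15 of 16 had a higher mean than in healthy livers (49.5% of all genes did), with a median change of 0.298, and no member passed, against 0.0994% of all genes. Sc5d and Fdps did not overlap with healthy livers there, against 1.49% of all genes upward. These comparisons share the healthy mice. With both outcome groups pooled, the median difference of vehicle from healthy was -0.09 over the synthesis genes, with 6 of 16 higher (51.8% of all genes). No member passed there (0.0117% of genes did) or reached an unadjusted p under 0.05 (6.73% did). Without the 4 arrays, Tm7sf2 passed in that comparison, at -1.08 (SE 0.227, limma adjusted p = 0.00491). It was at 7.58 in Hlth_1798 and 8.84 in Hlth_1807 and at 9.6 to 10.07 in the other healthy mice. In Veh_low_794 and Veh_low_1819 it was at 9.79 and 9.73, and at 8.03 to 8.63 in the other vehicle mice without HCC. Leaving out low healthy mice and high vehicle mice together widens the Tm7sf2 difference by construction.

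Against the 9 vehicle mice, the median change of the synthesis genes was close to 0 in both drug arms. It was 0.019 for sulindac, with 9 of 16 higher (53.2% of all genes), and 0.023 for aspirin with clopidogrel, with 8 of 16 higher (50.8%). The vehicle mean pools outcome groups that lie apart. Set against vehicle without HCC, 15 of 16 synthesis genes had a higher mean under sulindac (median 0.292) and 16 of 16 under aspirin with clopidogrel (median 0.351), against 51.4% and 49.4% of all genes. Set against vehicle with HCC, 15 of 16 had a lower mean under sulindac (median -0.44) and 14 of 16 under aspirin with clopidogrel (median -0.506), where 55.6% and 52.6% of all genes had a higher mean. No synthesis gene passed in these comparisons. Against vehicle with HCC no member of any role passed, against 0.0468% and 0.918% of genes. Between the drug arms, Sqle differed by 0.85 (SE 0.551, aspirin with clopidogrel minus sulindac, 95% interval -0.28 to 1.98, limma adjusted p = 0.64). Without AspClo_63 that difference was 0.45, and without AspClo_62 it was 1.27. Its change against vehicle was -0.54 (SE 0.491) under sulindac and 0.31 (SE 0.563) under aspirin with clopidogrel.

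Of the sterol sensors, Srebf2 was dim and narrow, with group means between 5.74 ± 0.18 (n = 10, sulindac) and 6.13 ± 0.26 (n = 5, healthy). It had the smallest p of the members for the diet, at -0.27 (SE 0.135, limma adjusted p = 0.757). Scap averaged between 8.97 ± 0.29 (healthy) and 9.35 ± 0.23 (aspirin with clopidogrel). Insig1, itself a target of SREBP-2, averaged 10.84 ± 0.30 in healthy, 10.66 ± 0.35 in vehicle without HCC, 11.05 ± 0.18 with HCC, 10.84 ± 0.27 under sulindac and 10.92 ± 0.60 under aspirin with clopidogrel. Its change with HCC was 0.39 (SE 0.237, limma adjusted p = 0.68). Insig2, whose transcription in liver is lowered by insulin, ran in another order. It was at 12.23, 12.25, 12.17, 11.76 and 11.54 in vehicle without HCC and at 12.14, 11.95, 11.39 and 11.05 with HCC, where the mice with high Dbp were the low ones. Without those mice its HCC change of -0.36 (SE 0.304) turned to 0.06 (SE 0.367). Under aspirin with clopidogrel it ran from 10.25 through 11.46 to 11.78, a change against vehicle of -0.51 (SE 0.239, limma adjusted p = 0.323). AspClo_58 was the low mouse, and without it the change was -0.29.

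Stard4, a carrier that moves cholesterol between membranes and a target of SREBP-2, was the member with the clearest difference between the drug arms and vehicle without HCC. It was at 8.53, 9.3, 9.35, 9.28 and 8.81 in healthy livers, at 8.28, 8.62, 8.41, 9.38 and 9.04 in vehicle without HCC and at 9.08, 9.1, 9.71 and 9.43 with HCC. Under sulindac it ran from 8.96 through 9.34 to 9.67, and under aspirin with clopidogrel from 8.96 through 9.51 to 9.71. The low vehicle mice without HCC lay below every drug-treated mouse, and Veh_low_794 and Veh_low_1819 within their range. Hlth_1798 and Hlth_1807 lay below every drug-treated mouse as well. Aspirin with clopidogrel exceeded vehicle without HCC by 0.71 (SE 0.182, 1.63-fold, limma adjusted p = 0.0488), the 1 member past the threshold there, where 1.31% of all genes passed. That call was lost, with an adjusted p of 0.175, when only the groups compared entered the fit. It was also lost when any of 7 of the 11 mice was left out, with adjusted p from 0.0141 to 0.137 over all 11. With the median of its 3 probe sets the change was 1.11 and the adjusted p 0.0521. For sulindac against vehicle without HCC the change was 0.59 (SE 0.164, limma adjusted p = 0.082; no member passed, against 0.983% of genes). Against all 9 vehicle mice the changes were 0.33 (SE 0.138) and 0.45 (SE 0.158), with limma adjusted p of 0.391 and 0.155.

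Npc1, which exports cholesterol from lysosomes, averaged 7.64 ± 0.30 in healthy livers, 8.19 ± 0.32 under sulindac and 8.09 ± 0.42 under aspirin with clopidogrel. Its change from healthy was 0.56 (SE 0.19, limma adjusted p = 0.116) and 0.46 (SE 0.21, limma adjusted p = 0.3). Vehicle livers averaged 7.76 ± 0.31 without HCC and 8.03 ± 0.49 with HCC, where Veh_high_1831 and Veh_high_2088, with high Dbp, were at 8.61 and 8.25. Sulin_15 and AspClo_63, the lowest of their arms at 7.5, had Dbp at 5.29 and 5.3. However, Veh_low_1819 and Hlth_1807 were at 8.19 and 8.13 with Dbp at 4.88 and 4.63. The part of Dbp in the Npc1 values was not tested. Npc2, its soluble partner, averaged between 10.44 ± 0.21 and 10.60 ± 0.26 over the 5 groups. Scarb1, the receptor for high-density lipoprotein, averaged between 9.27 ± 0.16 (vehicle with HCC) and 9.39 ± 0.14 (vehicle without HCC), and none of its neighbouring group means differed beyond their spread. Lcat, which esterifies cholesterol in plasma lipoproteins, was at 11.5, 11.42, 11.27 and 11.44 in vehicle with HCC and ran from 11.61 through 11.73 to 11.81 under aspirin with clopidogrel. These groups did not overlap, which held upward for 1.85% of all genes. Its change there was 0.32 (SE 0.102, limma adjusted p = 0.135). Against sulindac Lcat differed by 0.25 (SE 0.082, limma adjusted p = 0.177), the 1 member with an unadjusted p under 0.05 between the drug arms, where 10.8% of genes had one and 0.877% passed the adjusted threshold.

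The clearest difference of the export arm was in the sterol half-transporters, which had higher means in both drug arms than in every other group. The means of Abcg1, Mylip, Npc1, Stard4, Scap and Ebp were also higher in both drug arms than in every other group. Abcg8 was at 7.58, 7.52, 6.98, 7.73 and 6.49 in healthy livers, at 7.07, 7.11, 7.63, 7.65 and 7.97 in vehicle without HCC and at 7.2, 7.07, 7.99 and 7.99 with HCC. Under sulindac it ran from 7.47 through 8.05 to 8.64, and under aspirin with clopidogrel from 7.74 through 8.04 to 8.5. The drug-treated mice overlapped with the upper vehicle mice. Sulindac exceeded healthy by 0.83 (SE 0.213, 1.77-fold, limma adjusted p = 0.0296), the 1 member past the threshold, where 2.98% of all genes passed. The call was lost without Hlth_1965 (0.76, adjusted p = 0.101), without Hlth_1807 (0.63, adjusted p = 0.104) and without the 4 arrays (0.68, adjusted p = 0.079). Under aspirin with clopidogrel the change from healthy was also 0.83 (SE 0.235, limma adjusted p = 0.0524), just outside the threshold, where 2.77% of genes passed.

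Abcg5 was at 9.57, 9.55, 9.26, 9.33 and 8.54 in healthy livers, at 9.38, 9.41, 9.72, 9.27 and 9.67 in vehicle without HCC and at 9.12, 8.63, 9.98 and 9.96 with HCC. Under sulindac it ran from 9.53 through 9.89 to 10.37 and under aspirin with clopidogrel from 9.75 through 9.85 to 10.21. The aspirin-clopidogrel mice did not overlap with healthy mice for Abcg5 or Abcg8, against 1.19% of all genes upward, though for Abcg8 the lowest of them (7.735) and the highest healthy mouse (7.733) nearly met. They did not overlap with vehicle mice without HCC for Abcg5, against 0.825%, though the lowest of them (9.753) and the highest of those vehicle mice (9.725) nearly met. Sulindac exceeded healthy by 0.64 (SE 0.184, limma adjusted p = 0.0507) and aspirin with clopidogrel by 0.65 (SE 0.203, limma adjusted p = 0.0816).

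Against the 9 vehicle mice, no member passed under sulindac (0.199% of genes did) or under aspirin with clopidogrel (1.96% did). At an unadjusted p under 0.05, 4 of 30 members were higher under sulindac, against 5.98% of genes, and 5 higher and 1 lower under aspirin with clopidogrel, against 7.68% and 6.90%. For Abcg8 the changes were 0.57 (SE 0.178, limma adjusted p = 0.204) and 0.57 (SE 0.205, limma adjusted p = 0.165). For Abcg5 they were 0.44 (SE 0.154) and 0.45 (SE 0.177), with adjusted p of 0.263 and 0.216. These comparisons share the vehicle mice. The vehicle mice with high Dbp, Veh_high_1831 and Veh_high_2088, were the highest vehicle mice for both genes, clearly for Abcg5 and for Abcg8 by little over Veh_low_1819 at 7.97, where Dbp was at 4.88. Without them the changes of Abcg5 were 0.58 (SE 0.134, limma adjusted p = 0.0254) and 0.59 (SE 0.152, limma adjusted p = 0.0429), and Abcg8 reached 0.70 (SE 0.18, limma adjusted p = 0.0467) under sulindac. Leaving out the highest vehicle mice raises these changes by construction, and the vehicle mice kept had Dbp at 4.37 to 5.2. Dbp was at 7.7 or above in 9 of 10 sulindac mice and 5 of 6 aspirin-clopidogrel mice, and its part in the Abcg5 and Abcg8 values was not tested. Between the drug arms Abcg5 differed by 0.01 (95% interval -0.35 to 0.37) and Abcg8 by 0.00 (-0.41 to 0.41).

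Mylip was at 7.98, 7.51, 6.66 and 7.86 in vehicle with HCC, with Veh_high_1831 low, and ran from 7.74 through 8.03 to 8.24 under sulindac. Sulindac exceeded the 9 vehicle mice by 0.29 (SE 0.123, limma adjusted p = 0.399), and by 0.16 without Veh_high_1831. Nr1h3, which encodes LXR-alpha, averaged between 7.84 ± 0.13 (vehicle without HCC) and 8.06 ± 0.26 (aspirin with clopidogrel). Abcg1, a cholesterol exporter of macrophages and other cells, averaged 6.69 ± 0.83 in healthy livers, where Hlth_1798 was at 8.17 and the other mice between 6.15 and 6.45. That mouse also had the highest summed macrophage markers of all 30 mice. Under sulindac Abcg1 averaged 7.08 ± 0.29, and its change against vehicle was 0.44, with a limma adjusted p of 0.516. The summed level of 11 macrophage markers ran from 3332 to 7332 in the 9 vehicle mice and from 4268 to 7889 under sulindac, and its part in the Abcg1 value was not tested.

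**Figure D3:**
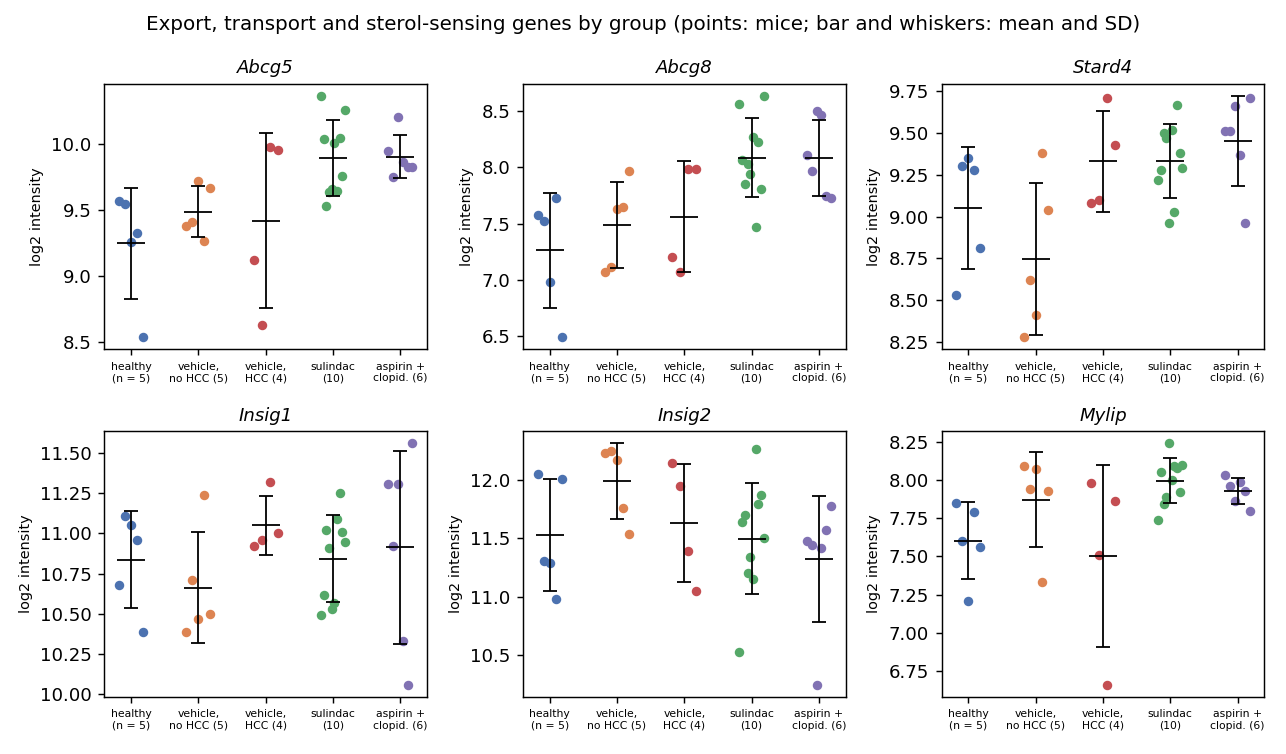
Log2 intensity (vertical axis) of Abcg5, Abcg8, Stard4, Insig1, Insig2 and Mylip in the 5 label groups (horizontal axis), 1 point per mouse, with mean and SD. The aspirin-clopidogrel mice lie above every healthy mouse for Abcg5 and Abcg8, only just for Abcg8 (7.735 against 7.733), and Stard4 is lowest in 2 vehicle mice without HCC and 1 healthy mouse.

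**Figure D4:**
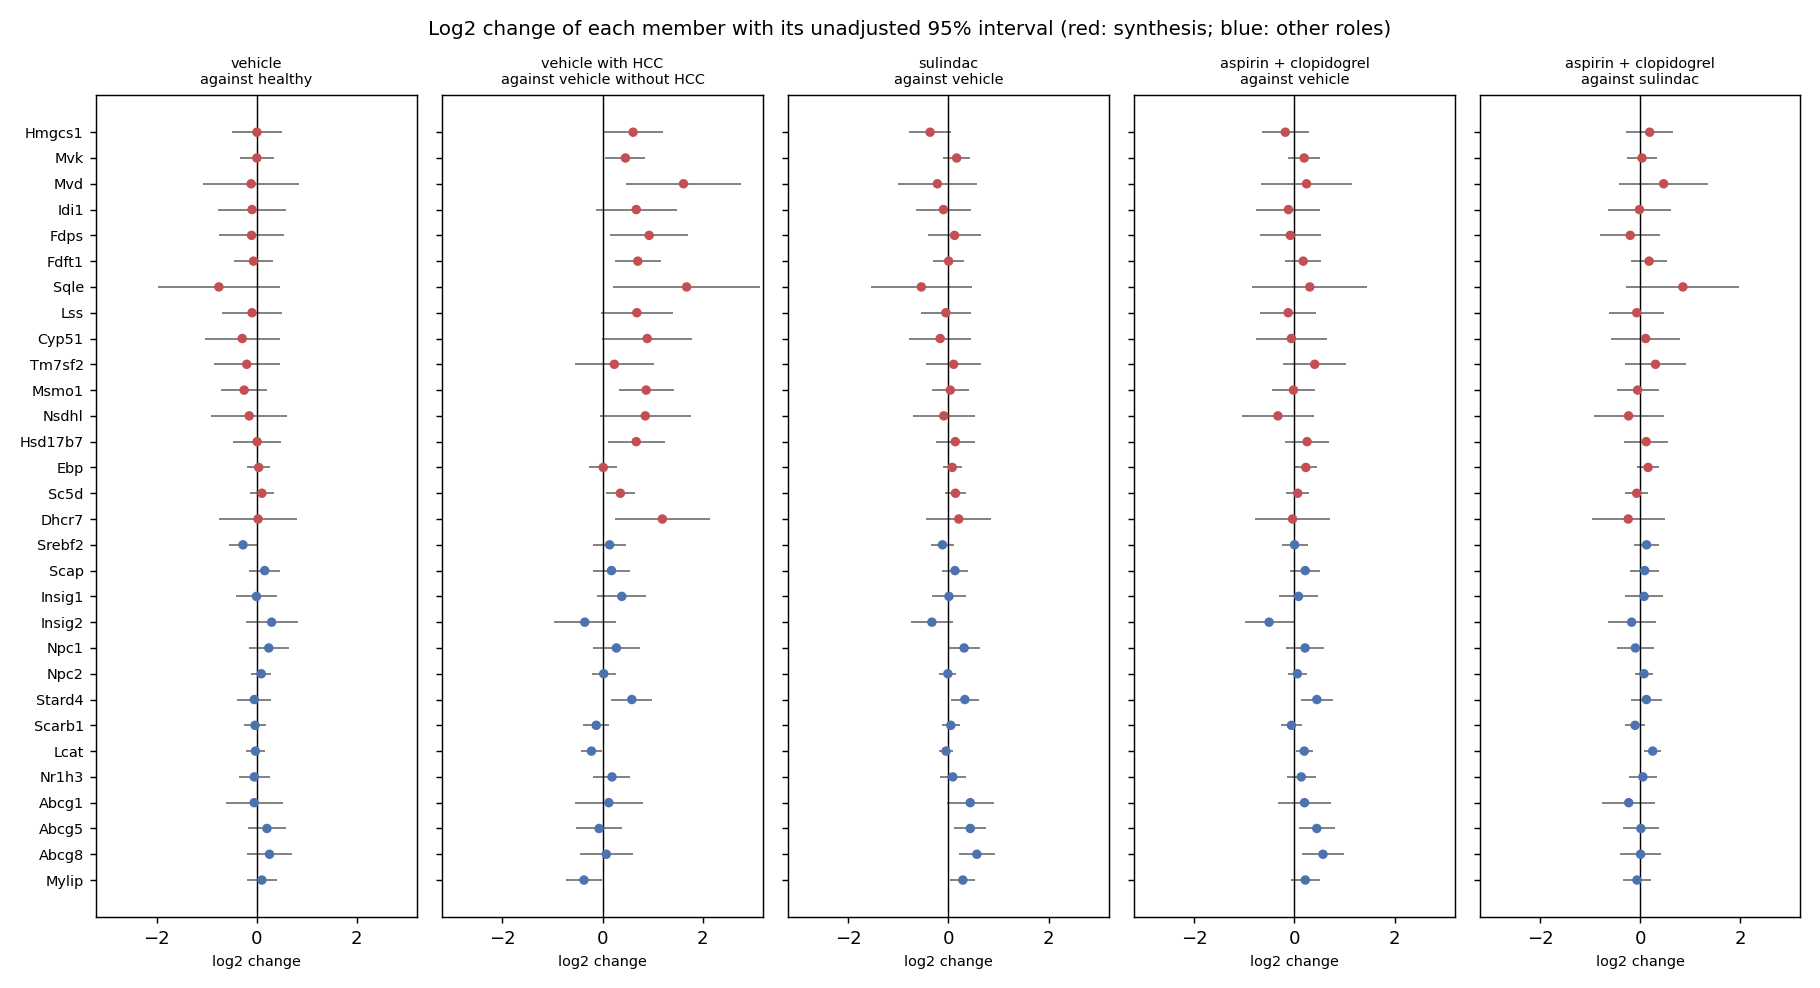
Log2 change (horizontal axis) of each of the 30 members (vertical axis) in the 5 main comparisons, as a point with its unadjusted 95% interval, red for synthesis and blue for other roles. The synthesis points lie to the right of 0 for HCC, with a median of 0.695. In the other 4 panels their medians are near 0 while single genes lie farther out, Sqle at -0.75 for vehicle against healthy and at 0.85 between the drug arms.

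Genes that sit around the pathway were counted as lists. Of 6 measured genes of the sterol and isoprenoid branches, 5 of SREBP processing and 5 oxysterol enzymes, none passed in the 5 main comparisons. Of 11 measured genes of uptake and lysosomal sterol handling, Vldlr, a lipoprotein receptor, passed under aspirin with clopidogrel against vehicle, at 0.43 (SE 0.084, limma adjusted p = 0.00675), and against sulindac, at 0.37 (SE 0.083, limma adjusted p = 0.0299). That is 1 of 11 genes in each, where 1.96% and 0.877% of all genes passed. Its level was low in every group, 4.70 ± 0.10 in vehicle (n = 9), 4.77 ± 0.17 under sulindac (n = 10) and 5.13 ± 0.25 under aspirin with clopidogrel (n = 6). For HCC the smallest p of that list was that of Tmem97, a sterol-responsive membrane protein, at 0.42 (SE 0.137, limma adjusted p = 0.32). None of 8 fatty acid synthesis genes passed in the main comparisons. For HCC, 7 of those 8 had a higher mean, with a median of 0.672, close to the 0.695 of the cholesterol enzymes. By mouse, the fatty acid genes and the cholesterol enzymes were high or low together in some mice and not in others. The median relative level of the fatty acid genes was 0.6 in Sulin_17 and 0.79 in AspClo_63, where the cholesterol enzymes were high, and -0.6 in Sulin_16 and -0.77 in AspClo_62, where they were low. In vehicle mice without HCC they did not run in parallel. The fatty acid genes were at 0.07, 0.05 and 0.0 in Veh_low_1810, Veh_low_1825 and Veh_low_2091, where the cholesterol enzymes were at -0.58, -0.44 and -0.90. They were at -0.42 and -1.0 in Veh_low_794 and Veh_low_1819, where the cholesterol enzymes were at 0.25 and -0.12.

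Relations between members were computed in the same mouse over all 30 mice, after each group's mean was removed. Sqle correlated with Insig1 (Pearson r = 0.672, Spearman rho = 0.658, adjusted permutation p = 0.00164 and 0.00133), and r was 0.629 without the mice farthest from the Sqle median, Veh_low_2091 and AspClo_62. Sqle also correlated with Stard4 (r = 0.595, rho = 0.605, adjusted permutation p = 0.00189 and 0.00133), with Srebf2 (r = 0.533, rho = 0.57, adjusted permutation p = 0.00664 and 0.00423) and with Hmgcs1 (r = 0.531, rho = 0.509, adjusted permutation p = 0.00189 and 0.00626). Without those mice r was 0.496, 0.555 and 0.497. With Insig2, r was 0.161 (rho = 0.13, adjusted permutation p = 0.417 and 0.499), and with Abcg5 it was -0.244 (rho = -0.22, adjusted permutation p = 0.106 and 0.28). Abcg5 and Abcg8 correlated (r = 0.81, rho = 0.804, adjusted permutation p = 7e-05 and 0.00014, raw p = 1e-05 for r, the smallest that 100000 resamples can give), with r = 0.766 without Veh_high_1770 and Hlth_1807. All 7 tests were two-sided permutations within groups, adjusted over the 7 pairs. Within the sulindac group r of Sqle with Insig1 was 0.742, and in the aspirin-clopidogrel group 0.847. For Sqle with Insig2 these were 0.72 and 0.135.

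**Figure D5:**
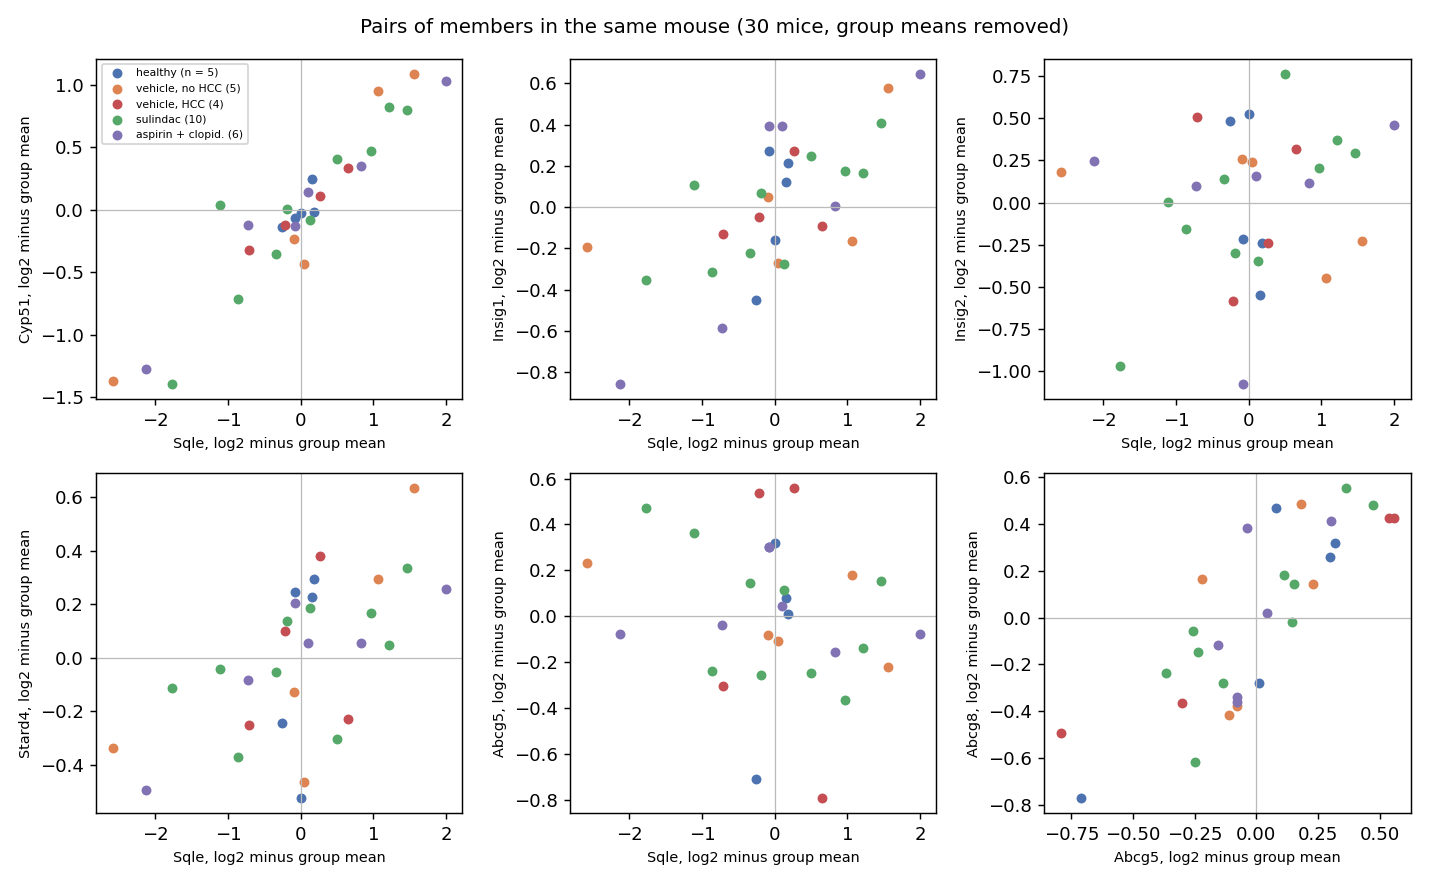
Log2 intensity minus the group mean of 1 gene against another in the same mouse, 30 points coloured by group. Cyp51 and Sqle lie along a line (r = 0.941), Insig1 and Stard4 are higher where Sqle is higher, Insig2 and Abcg5 show little relation to it, and Abcg5 and Abcg8 vary together (r = 0.81).

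As a description, the 120 pairs of synthesis genes had r from -0.056 to 0.972, with a median of 0.737, and 119 were above 0. The points share the array and its scaling. Among 17096 other genes ranked by r with Sqle, the first 6 were Cyp51 (0.941), Nsdhl (0.92), Msmo1 (0.918), Idi1 (0.906), Fdps (0.862) and Fdft1 (0.857), all synthesis enzymes. Of the first 30, 12 were synthesis genes and 1 was Scap. Rdh11, Fabp5, Lbr and Acss2 were among the others. Ebp, at 0.364, ranked far lower, as did Tm7sf2 at 0.568 and Hmgcs1 at 0.531. Abcg8 ranked first among all genes for likeness to Abcg5.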

How the data were processed

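RNA from 20 mg of fresh-frozen liver was hybridised to 1 Affymetrix HT MG-430 PM array per mouse, per the labels' protocols. The deposited values are linear intensities, which the authors made with RMA and quantile normalization, as its design text and the submitters' processing notes say. Here log2 of each intensity was taken. Of 45141 probe sets, 28898 had 1 gene symbol in the platform annotation, and the one with the highest mean stood for each of 17097 genes. limma 3.58.1 in R 4.3.3 was fitted to 5 group means over all 30 arrays, with the vehicle mean over 9 mice and Benjamini-Hochberg adjustment over all genes at a threshold of 0.05. The series' design text lists fewer vehicle mice than the sample labels, which were followed. Members and lists were chosen with earlier results of these data known. The rule for named genes took members past the threshold in a comparison, the 4 with the smallest p in each main comparison and a fixed list of pathway genes. Dhcr7, Fdps, Sc5d, Hsd17b7, Mvk, Lss, Cyp51, Nsdhl, Tm7sf2, Ebp, Npc1, Npc2, Scap, Nr1h3 and Abcg1, where not named by it for a comparison, were added after their values were seen. Relations used 100000 permutations within groups (scipy 1.17.1). The fitting code was tested on simulated data. Mice are separate animals, and no batch is given. Alternatives were the samples in the fit, the probe set rule, a filter on dim genes, 16 added before log2, centring, array weights and leaving out mice. For comparisons with healthy mice or single vehicle groups these were added after the data were seen, and a planned relation of Abca1 with Mylip could not be run.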

Additional observations from a re-analysis of the deposited data

Results flagged for a closer look

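In 9 of 150 sets of 1 gene in 1 group, the highest or lowest mouse lay far from the others, where about 1 in 20, or 7.5, would by chance. All values are log2 intensities. Among the synthesis genes, Hmgcs1 was at 4.41 in Veh_low_2091, where the nearest mouse of its group was at 4.83, and at 6.01 in AspClo_63, where the nearest was at 4.87. Mvk was at 6.22 in Sulin_17 (nearest 5.54) and Ebp at 11.46 in the same mouse (nearest 11.19), while Fdps was at 9.51 in Sulin_16 (nearest 10.98). These mice are at the ends of the synthesis range in their groups. Among the other genes, Insig2 was at 10.25 in AspClo_58 (nearest 11.42), Nr1h3 at 7.5 in Sulin_15 (nearest 7.9), and Mylip at 7.33 in Veh_low_794 (nearest 7.93). Abcg1 was at 8.17 in Hlth_1798 (nearest 6.45), the mouse with the highest summed macrophage markers.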

How the results depend on the processing

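No member passed the threshold in the 5 main comparisons, and none did when any 1 mouse was left out (0 to 0). With array weights, 1 member passed under sulindac against vehicle (Abcg8, 0.63) and 1 under aspirin with clopidogrel (Stard4, 0.53). Without Hlth_1798, Hlth_1807, Veh_low_794 and Veh_low_1819, 1 member passed for vehicle against healthy (Tm7sf2), 1 for HCC (Stard4, 0.89, limma adjusted p = 0.0374) and 1 under aspirin with clopidogrel against vehicle (Stard4, 0.505). Veh_low_794 and Veh_low_1819 hold the highest Stard4 levels of vehicle without HCC, at 9.38 and 9.04, and its highest Tm7sf2 levels. Leaving them out therefore widens these differences by construction. Without Veh_high_1831 and Veh_high_2088, 2 passed under sulindac (Abcg5 and Abcg8) and 1 under aspirin with clopidogrel (Abcg5), and the HCC change of Insig2 reversed, to 0.057. The cause of the reversal was not tested. Those mice were the highest vehicle mice for Abcg5 and Abcg8, so leaving them out raises the drug changes of these genes by construction. The synthesis median with 1 mouse left out ran from 0.578 to 0.905 for HCC, -0.16 to 0.03 for the diet, -0.094 to 0.081 for sulindac, -0.153 to 0.243 for aspirin with clopidogrel and -0.097 to 0.235 between the drug arms. No paired analysis was possible because the groups share no replicate numbers. The number of arrays, 4 to 10 per group, limits the precision.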
